A study of Mus musculus with 2 samples.

Results

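The wound stress keratins are the 4 keratin genes Krt6a, Krt6b, Krt16 and Krt17, followed here in keratinocytes of healing mouse skin. They were found by symbol among the 27998 genes counted in both libraries, and all 4 were present. Keratins build the intermediate filaments of epithelial cells from pairs of a type II and a type I protein. Krt6a and Krt6b encode type II keratins, and Krt16 and Krt17 encode the type I keratins that pair with them. Intact interfollicular epidermis makes little of the 4, hair follicles and nails carry them constitutively, and keratinocytes at a wound edge switch them on as they become activated.

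Young adult male wildtype C57BL/6J mice carried a large round excision on the back, 1.8 cm across and through the whole skin. By the labels it was treated with PBS (the library WT_LW) or ODN2395, a CpG oligonucleotide that activates Toll-like receptor 9 (the library TLR9agonist_LW), on days 0, 3 and 6 after wounding. Skin from the wound centre was taken 2 days after scab detachment, and its epidermal and dermal cells were dissociated, recombined and counted with the 10x Genomics 3′ single-cell method. Both groups share the genotype, the wound and the timing, and each is 1 library of cells pooled from several mice. With 1 library per group there was no replicate and no test, every interval below is a 95% interval that covers counting error only, and the agonist, the mice and the library preparation cannot be told apart.

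After filtering, WT_LW kept 10395 cells with a median of 5054 unique molecular identifiers (UMIs, each standing for 1 captured RNA molecule), and TLR9agonist_LW kept 11811 with a median of 5689. The libraries shared 39 of their filtered barcodes, of which 0 were keratinocytes in both libraries. Keratinocytes were gated on 22 marker genes that include none of the 4 stress keratins, and numbered 418 in WT_LW (4.02% of cells) and 1178 in TLR9agonist_LW (9.97%). They were deeply counted, with medians of 20014.5 and 23440.0 UMIs per cell. Levels are in CPM, a gene's UMIs per 1000000 UMIs of the cells summed. The 3′ method tags each molecule once, so levels can be set side by side between genes without a length correction. All 13 markers of other lineages were above 0 in the gated keratinocytes, from 0.11 to 275 CPM in WT_LW and from 0.18 to 374 CPM in TLR9agonist_LW. Their part in the results was not tested.

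The 4 genes lie in the mouse keratin clusters, here given on GRCm38 from GENCODE M21. Krt6b (chr15:101676023-101680287) and Krt6a (chr15:101689910-101694307) are neighbours on the minus strand of the type II cluster, each with 9 exons in its transcript used here. Krt16 (chr11:100246091-100248902) and Krt17 (chr11:100256217-100261029) are neighbours on the minus strand of the type I cluster, each with 8 exons. The paralogs matter for the counts, because a read that fits 2 genes equally well cannot be assigned to either. Krt6a and Krt6b were 97.8% identical over their aligned coding bases, and the longest run shared by their transcripts was 280 bases. The last 90 coding bases of both, stop codon included, are given from the GENCODE transcripts, 5′ to 3′, to let the likeness be seen, with capitals for bases that differ or face a gap in the alignment of the whole coding sequences.
Krt6a: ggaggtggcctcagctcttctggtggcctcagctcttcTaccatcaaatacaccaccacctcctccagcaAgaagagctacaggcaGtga
Krt6b: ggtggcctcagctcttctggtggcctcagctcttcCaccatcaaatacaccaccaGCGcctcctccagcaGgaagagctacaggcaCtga
Only 3 of these Krt6a bases and 6 of these Krt6b bases are in capitals. The genes part beyond the stop codon, where identity fell to 78.9% of aligned bases, and of the 411 stretches of 90 bases in the last 500 bases of the Krt6a transcript, 0 occurred in Krt6b. Over the whole Krt6a transcript 31.7% of such stretches occurred in Krt6b. Reads at the 3′ end can therefore be told apart, while reads from further inside may have been lost or shared, so the split between Krt6a and Krt6b carries this uncertainty. Krt16 and Krt17 were 77.5% identical and shared no stretch of 90 bases, while Krt16 was 86.0% identical to Krt14, the basal type I keratin, and shared 4.47% of such stretches with it.

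In the keratinocytes as a whole all 4 stress keratins were abundant in both libraries and somewhat higher in TLR9agonist_LW. Together they took 0.958% of keratinocyte UMIs in WT_LW and 1.28% in TLR9agonist_LW. Krt16 was the highest of the 4 in both, ranking 49th and 33rd among all genes by UMIs in keratinocytes. Krt6a stood at 2396 CPM in WT_LW (2364 to 2428) and at 2768 CPM with the agonist (2748 to 2788), which is a log2 ratio of TLR9agonist_LW to WT_LW of 0.21 (0.19 to 0.23). Krt6b had 1558 CPM (1533 to 1584) and 2237 CPM (2219 to 2255), a log2 ratio of 0.52 (0.50 to 0.55). Among the type I partners, Krt16 had 3883 CPM (3843 to 3924) and 5338 CPM (5311 to 5365), a log2 ratio of 0.46 (0.44 to 0.48). Krt17 had 1742 CPM (1715 to 1769) and 2449 CPM (2430 to 2467), a log2 ratio of 0.49 (0.47 to 0.52).

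None of the 4 reached a 2-fold difference in keratinocytes. Of the 10986 genes with at least 50 UMIs there, 2.69% were at least 2-fold higher in TLR9agonist_LW and 17.9% at least 2-fold lower. The median gene with at least 200 UMIs was itself lower in TLR9agonist_LW, at a log2 ratio of −0.43. Relative to it, the log2 ratios were 0.64 for Krt6a, 0.95 for Krt6b, 0.89 for Krt16 and 0.92 for Krt17. The 4 ratios lay between the 87.8th and the 93.8th percentile of 8136 genes. Over all cells of a library, where the share of keratinocytes also counts, the log2 ratios were much larger, from 1.41 for Krt6a to 1.71 for Krt6b and Krt16. The keratinocytes held between 84.6% and 89.1% of each gene's UMIs in each library.

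Endothelial cells, which should make none of these keratins, served as the background level in each library. In WT_LW they had 22.5 CPM of Krt6a, 13.7 of Krt6b, 37.1 of Krt16 and 18.4 of Krt17. In TLR9agonist_LW these levels were 91.8, 69.6, 213 and 60.4 CPM, from 3.27 to 5.74 times as high. The mix in endothelial cells resembled that in keratinocytes, with Krt16 giving 40.5% of the 4 genes' UMIs in both cell types of WT_LW, and 49.0% in endothelial cells against 41.7% in keratinocytes of TLR9agonist_LW. The keratinocyte level was from 94.5 to 114 times the endothelial level in WT_LW and from 25.1 to 40.6 times in TLR9agonist_LW. With the endothelial level subtracted, the log2 ratios in keratinocytes were 0.17 for Krt6a, 0.49 for Krt6b, 0.41 for Krt16 and 0.47 for Krt17. In CPM, other cell classes had higher levels than endothelial cells in TLR9agonist_LW, but the classes also differed in depth. Median UMIs per cell there were 9571.5 in endothelial cells, 4767 in T cells and 23440.0 in keratinocytes. The part of depth in the CPM of each class was not tested. Of the non-keratinocyte classes measured there, endothelial cells had least of the 4 together, at 435 CPM against 819 in T cells. T cells of that library had 174 CPM of Krt6a, 150 of Krt6b, 370 of Krt16 and 125 of Krt17, and these levels were not subtracted.

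The keratinocytes were then divided by marker scores into basal and differentiated interfollicular cells, upper hair follicle cells, bulge hair follicle cells, lipid-making cells and cycling cells, names that stand for the marker gates. Another 81 cells of WT_LW (19.4% of keratinocytes) and 351 of TLR9agonist_LW (29.8%) stayed unassigned. Their highest score was either low or too close to the next. Among the named subsets, Krt6a, Krt6b and Krt16 were highest in differentiated cells in both libraries, whereas Krt17 was highest in upper hair follicle cells. The unassigned cells of TLR9agonist_LW had still more Krt6a, at 3348 CPM against 3213 in differentiated cells.

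**Figure D1:**
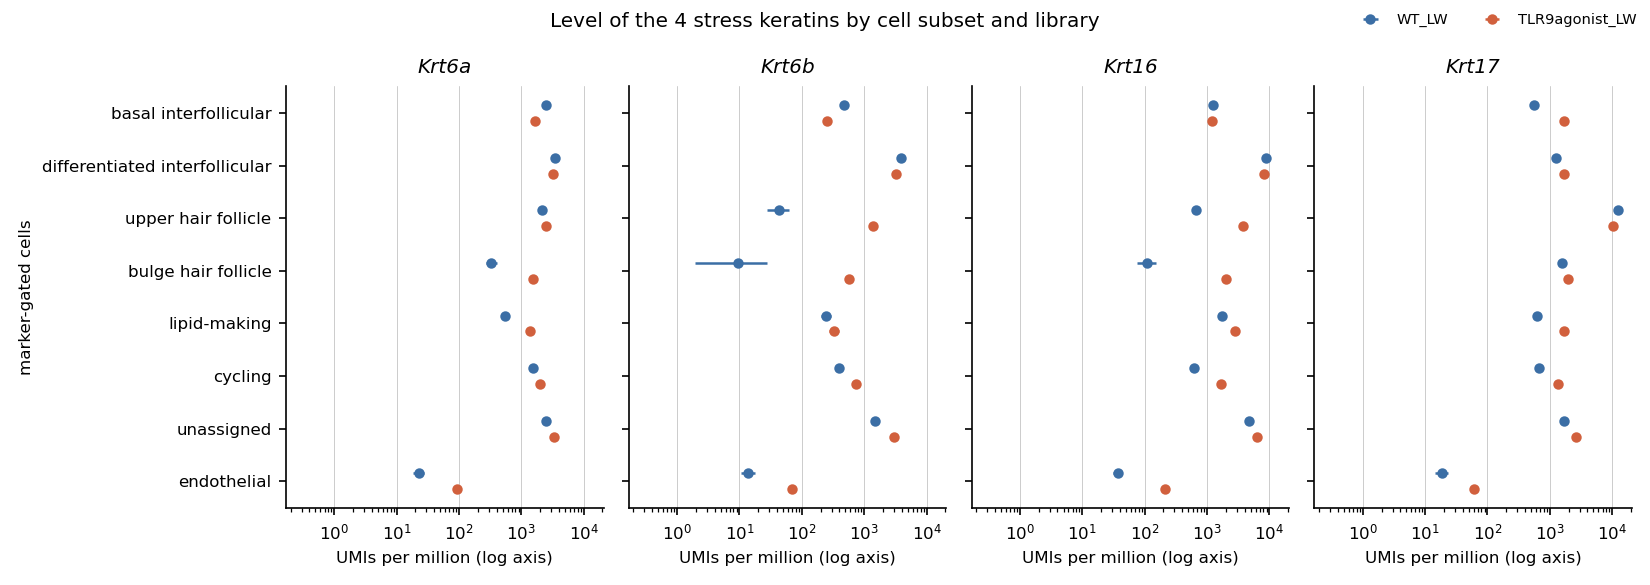
Level of each stress keratin in CPM (log axis) by marker-gated subset, with endothelial cells as the level of keratin RNA in cells that should lack it. Points are libraries and bars are 95% counting intervals. Krt17 stands out in upper hair follicle cells of both libraries. The lowest point of Krt6b, 9.38 CPM in bulge cells of WT_LW, has an interval that holds the endothelial level.

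In differentiated interfollicular cells, which carry the suprabasal keratins Krt1 and Krt10, the levels of the 2 libraries lay close together. Krt6a had 3453 CPM in WT_LW and 3213 in TLR9agonist_LW, Krt6b had 3865 and 3297, and Krt16 had 8888 and 8316. The log2 ratios were −0.10 for Krt6a (−0.14 to −0.07), −0.23 for Krt6b (−0.26 to −0.20) and −0.10 for Krt16 (−0.12 to −0.08). Relative to the median gene of these cells they turned positive, at 0.19, 0.061 and 0.19, so no direction is read from them. Krt17 was at 1254 CPM in WT_LW and 1694 with the agonist (log2 ratio 0.43), while the log2 ratio was 0.034 with equal weight per cell and 1.31 without the tenth of cells richest in it (374 and 925 CPM). Left out in the same way, Krt6a and Krt16 also turned positive, at 0.24 and 0.082. In the median single cell Krt16 took 0.75% of UMIs in WT_LW and 0.79% in TLR9agonist_LW. Lor, a late cornified envelope gene, had 1169 CPM in this gate of WT_LW and 1.46 in that of TLR9agonist_LW, and the part of such marker differences in these values was not tested.

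In basal interfollicular cells, which attach to the basement membrane and carry Krt5 and Krt14, the 4 genes parted. Krt17 had 566 CPM in the 89 WT_LW cells (532 to 601) and 1665 CPM in the 187 TLR9agonist_LW cells (1623 to 1707), or 1.56 on the log2 scale (1.46 to 1.65). Krt6a went the other way, from 2472 to 1626 CPM (log2 ratio −0.60, −0.66 to −0.55). Krt16 had 1241 and 1182 CPM, and its interval held 0 (−0.14 to 0.00). The log2 ratio of Krt16 was 0.37 with equal weight per cell and −0.31 with the endothelial level subtracted, so no direction is read from it. Krt6b was low in both, at 469 and 253 CPM (log2 ratio −0.89). Without the tenth of cells richest in each gene, Krt17 had 392 and 1096 CPM, Krt6a 1757 and 1255, and Krt16 624 and 740. Krt6b turned, with 72.8 and 88.9. The 9 richest WT_LW cells had held 87.0% of the Krt6b UMIs. The UMIs of the type II genes were 1.63 times those of the type I genes in WT_LW basal cells and 0.66 times in TLR9agonist_LW basal cells, while in differentiated cells this ratio was 0.72 and 0.65. Krt15, a keratin of basal and bulge cells, had 1065 CPM in WT_LW basal cells and 200.3 in those of TLR9agonist_LW, and Krt1 had 1434 and 461 CPM. Their part in the keratin values was not tested.

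Upper hair follicle cells, marked by Krt79 and Cst6, carried Krt17 at 12189.8 CPM in WT_LW (41 cells) and 10439 CPM in TLR9agonist_LW (82 cells), with a log2 ratio of −0.22 (−0.26 to −0.18). These few cells held 36.6% of all Krt17 UMIs in the first library and 21.7% in the second. Krt6a had 2125 and 2496 CPM (log2 ratio 0.23). Krt16 went from 658 CPM to 3745 (log2 ratio 2.51, 2.36 to 2.66), and without the tenth of cells richest in it from 169 to 2254. Krt6b had only 24 UMIs in WT_LW, 42.4 CPM, against 1369.8 CPM in TLR9agonist_LW. A few cells decided the Krt6b levels. In WT_LW 5 of the 41 cells held 95.8% of its UMIs, and in TLR9agonist_LW 9 of the 82 held 90.1%. Without them the levels were 2.06 and 174 CPM, a log2 ratio of 6.41 from very few WT_LW UMIs. The log2 ratio of Krt6b was 4.25 with equal weight per cell. The median cell gave Krt16 0.010% of its UMIs in WT_LW and 0.24% in TLR9agonist_LW. The TLR9agonist_LW cells of this gate also had more Krt1 (2768 CPM against 704) and less Krt79 (5351 CPM against 13047). The part of this difference in the keratin values was not tested.

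Bulge hair follicle cells, the stem cell region of the follicle, were few, 24 in WT_LW and 42 in TLR9agonist_LW. In WT_LW they had the lowest levels of Krt6a (331 CPM), Krt6b (9.38 CPM, 3 UMIs) and Krt16 (109 CPM) of any subset. The interval of that Krt6b level, 1.93 to 27.4 CPM, held the endothelial level of 13.7 CPM. In TLR9agonist_LW they had 1558 CPM of Krt6a, 572 of Krt6b and 2041 of Krt16. The log2 ratios were 2.23 for Krt6a (1.94 to 2.54), 5.93 for Krt6b (4.37 to 8.22) and 4.22 for Krt16 (3.74 to 4.75). They were not stable in size, since that of Krt6b was 3.16 with doublets kept, 3.22 with a looser gate, 2.72 with clustered cells and 4.71 with equal weight per cell, and that of Krt16 was 2.68 with doublets kept and 3.44 with equal weight per cell. Krt17 had 1592 and 1938 CPM, a log2 ratio of 0.28. The 5 richest of the TLR9agonist_LW cells held 91.4% of the Krt6b UMIs and 59.8% of the Krt16 UMIs. The other cells had 60.9 CPM of Krt6b, below the 69.6 CPM of endothelial cells in that library. Marker levels of this gate also differed, with the differentiation gene Krt1 at 65.7 CPM in WT_LW and 651 with the agonist (endothelial cells 76.6 and 202), and the bulge marker Krt15 at 1717 and 688 CPM. Their part in the keratin values was not tested.

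Cycling keratinocytes had more of all 4 in TLR9agonist_LW, with log2 ratios of 0.35 for Krt6a, 0.89 for Krt6b and 1.44 for Krt16, and with Krt17 at 674 and 1351 CPM, whose log2 ratio was 0.23 with doublets kept. The lipid-making cells, 19 and 20 in number, had log2 ratios of 1.32, 0.42, 0.69 and 1.47 for Krt6a, Krt6b, Krt16 and Krt17, but these values turned on the gate. With a stricter gate they were 0.28, −0.82, −0.17 and 0.87, and with a looser one 4.62, 3.44, 6.11 and 2.98, so no direction is read from Krt6b and Krt16. Unassigned cells lay between basal and differentiated cells for Krt16, at 4718 CPM in WT_LW and 6346 with the agonist. For Krt17 they had 1703 and 2653 CPM, above both basal and differentiated cells.

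**Figure D2:**
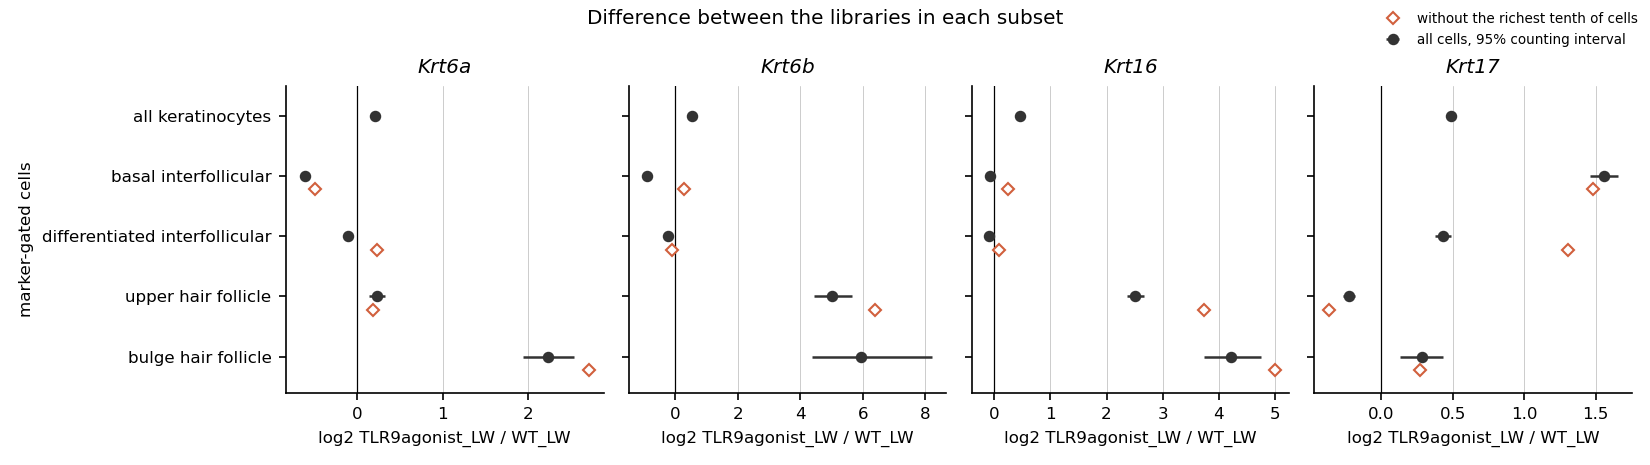
Log2 ratio of TLR9agonist_LW to WT_LW for each stress keratin in all keratinocytes and in 4 subsets, each panel with its own scale. Black points use all cells, with 95% counting intervals, and open diamonds leave out the tenth of cells richest in the gene. The basal ratio of Krt17 stays near 1.5 in both, while that of Krt6b changes sign from −0.89 to 0.29.

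Because the subsets were filled unequally, all keratinocytes were also put in order, those of the follicle gates included. The order was the share of Krt1 and Krt10 in the UMIs of Krt1, Krt10, Krt5 and Krt14. It therefore mixes follicle cells with the step from basal to differentiated cells. Krt6a followed the same course in both libraries. Its level in WT_LW was 1931 CPM at a share below 10%, 3719 from 10 to 30%, 4913 from 30 to 50%, 3298 from 50 to 70%, and 1931 above 70%. In TLR9agonist_LW it was 2026, 3716, 4818, 3254 and 2212 CPM in the same bins, so that every log2 ratio lay between −0.03 and 0.20. Krt6b and Krt16 also peaked between 30 and 50% in both libraries, at 3580.3 and 5003 CPM for Krt6b and at 9732 and 8709.9 CPM for Krt16.

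The largest ratios of Krt6b and Krt16 were in the cells below 30%. From 10 to 30% Krt6b had 1465 CPM in WT_LW and 3181 in TLR9agonist_LW, or 1.12 on the log2 scale (1.02 to 1.21), and Krt16 had 2916 and 6207 CPM, a log2 ratio of 1.09 (1.02 to 1.16). From 50 to 70% the log2 ratios were −0.02 for Krt6b and −0.05 for Krt16. Krt17 had no common course, and its largest log2 ratio, 0.93, was in the cells above 70%. From 10 to 30% it had 3460 CPM in WT_LW and 2737 in TLR9agonist_LW. Upper hair follicle cells had 704 and 2768 CPM of Krt1, and the part of follicle cells in the bin values was not tested. Of the WT_LW keratinocytes only 30 cells lay between 10 and 30% and 21 between 30 and 50%, or 7.18% and 5.02% of them, against 13.2% and 9.25% in TLR9agonist_LW. With the same mix of these bins applied to both libraries, the log2 ratios over all keratinocytes were 0.059 for Krt6a, 0.26 for Krt6b, 0.20 for Krt16 and 0.41 for Krt17.

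**Figure D3:**
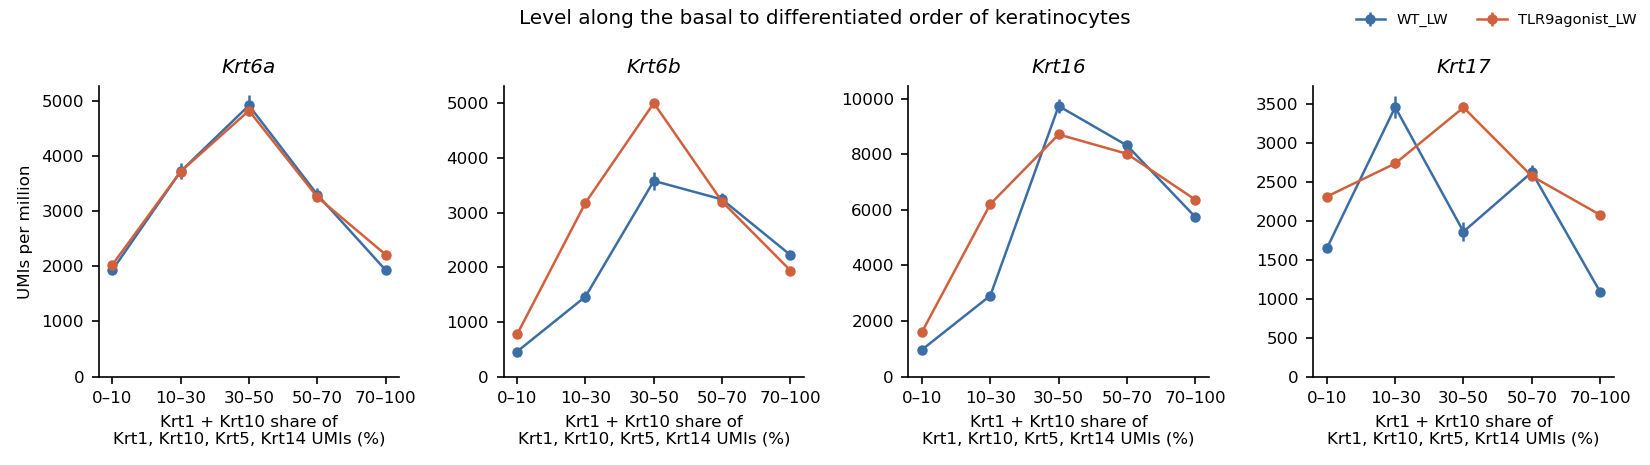
Level of each stress keratin in CPM along 5 bins of the share of Krt1 and Krt10 in the UMIs of Krt1, Krt10, Krt5 and Krt14, with lines joining the bins of a library and bars for 95% counting intervals. The lines of the libraries nearly coincide for Krt6a and part for Krt6b and Krt16 in the 10 to 30% bin.

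To see whether the 4 genes were on in the same cells, each cell was thinned to 1500 UMIs. All 4 were then detected together in 64 of 417 keratinocytes of WT_LW (15.3%, 12.02 to 19.2) and in 371 of 1178 of TLR9agonist_LW (31.5%, 28.8 to 34.2). Without thinning the shares were 41.4% and 77.6%, and endothelial cells without thinning had all 4 in 0% and 16.1% of cells. In endothelial cells thinned in the same way, with medians of 6880.0 and 9571.5 UMIs before thinning, all 4 were detected in 0 of 489 cells, which allows a share of up to 0.613% (3 counts of the total), and in 0 of 286 cells, which allows up to 1.05%. The exact interval reached 0.752% and 1.28%. At least 1 of the 4, in contrast, was found in many endothelial cells of TLR9agonist_LW, where only 45.8% had none, against 80.6% in WT_LW. Detection of all 4 in keratinocytes lay above the endothelial share in both libraries. In thinned endothelial cells single genes were detected in 3.07% to 8.59% of cells of WT_LW and 10.8% to 33.6% of TLR9agonist_LW. A keratinocyte that makes some of the 4 needs fewer UMIs from other cells to reach all 4 than an endothelial cell does. The endothelial share therefore does not bound the part of such RNA in the keratinocyte shares, which was not tested.

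The subsets differed in this share, but the share did not follow the level of the 4 together. That level was 17460 and 16520 CPM in differentiated cells and 4748 and 4727 in basal cells. In upper hair follicle cells it was 15015 and 18050.5 CPM. All 4 were found in 31.2% of differentiated cells of WT_LW (22.7 to 40.8) and 45.6% of those of TLR9agonist_LW (40.4 to 50.9), whose intervals overlap at their ends. In basal cells the shares were 5.62% (1.85 to 12.6) and 9.63% (5.81 to 14.8), whose intervals also overlap. In upper hair follicle cells they were 1 of 41 cells (2.44%, 0.062 to 12.9) and 18 of 82 (13.6 to 32.5%).

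**Figure D4:**
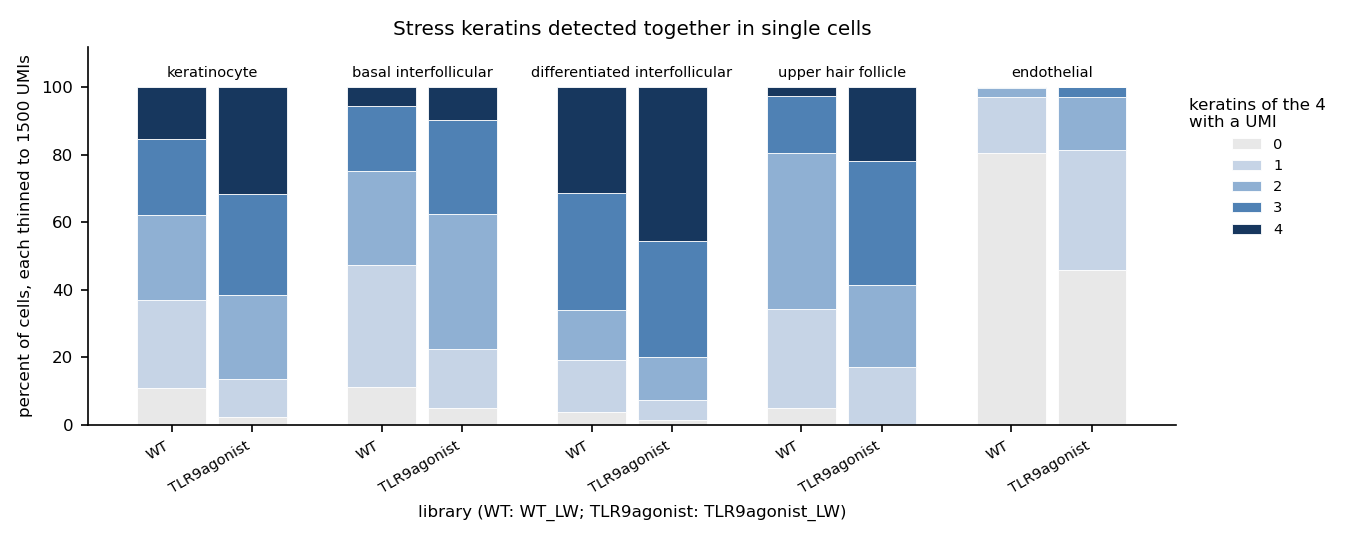
Percent of cells in which 0, 1, 2, 3 or 4 of the stress keratins had a UMI after each cell was thinned to 1500 UMIs, for keratinocytes, 3 of their subsets and endothelial cells of both libraries. Darker parts of a bar stand for more keratins, and the darkest part, all 4, is absent from the endothelial bars and reaches 45.6% in differentiated cells of TLR9agonist_LW.

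Across single keratinocytes the type II genes and Krt16 were more closely related to each other than to Krt17. Over the 418 cells of WT_LW and the 1178 of TLR9agonist_LW, Pearson's r of log-scaled counts was 0.76 and 0.72 for Krt6b with Krt16, 0.62 and 0.70 for Krt6a with Krt6b, and 0.55 and 0.57 for Krt6a with Krt16. For Krt17 it was −0.07 and 0.03 with Krt16, −0.01 and 0.12 with Krt6b, and 0.17 and 0.21 with Krt6a. After thinning to equal depth the value for Krt6b with Krt16 was 0.73 and 0.64. Within differentiated cells alone Krt17 had r of 0.36 and 0.37 with Krt16 and 0.47 and 0.31 with Krt6b. With Krt6a it had 0.52 and 0.48. These values were higher than over all keratinocytes but still below those of the pairs without Krt17. In differentiated cells Krt6a with Krt6b had 0.84 and 0.76, Krt6a with Krt16 0.67 and 0.65, and Krt6b with Krt16 0.69 and 0.57. These cells share a library, and reads split between paralogs could add to the value of Krt6a with Krt6b, so the coefficients are descriptions.

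**Figure D5:**
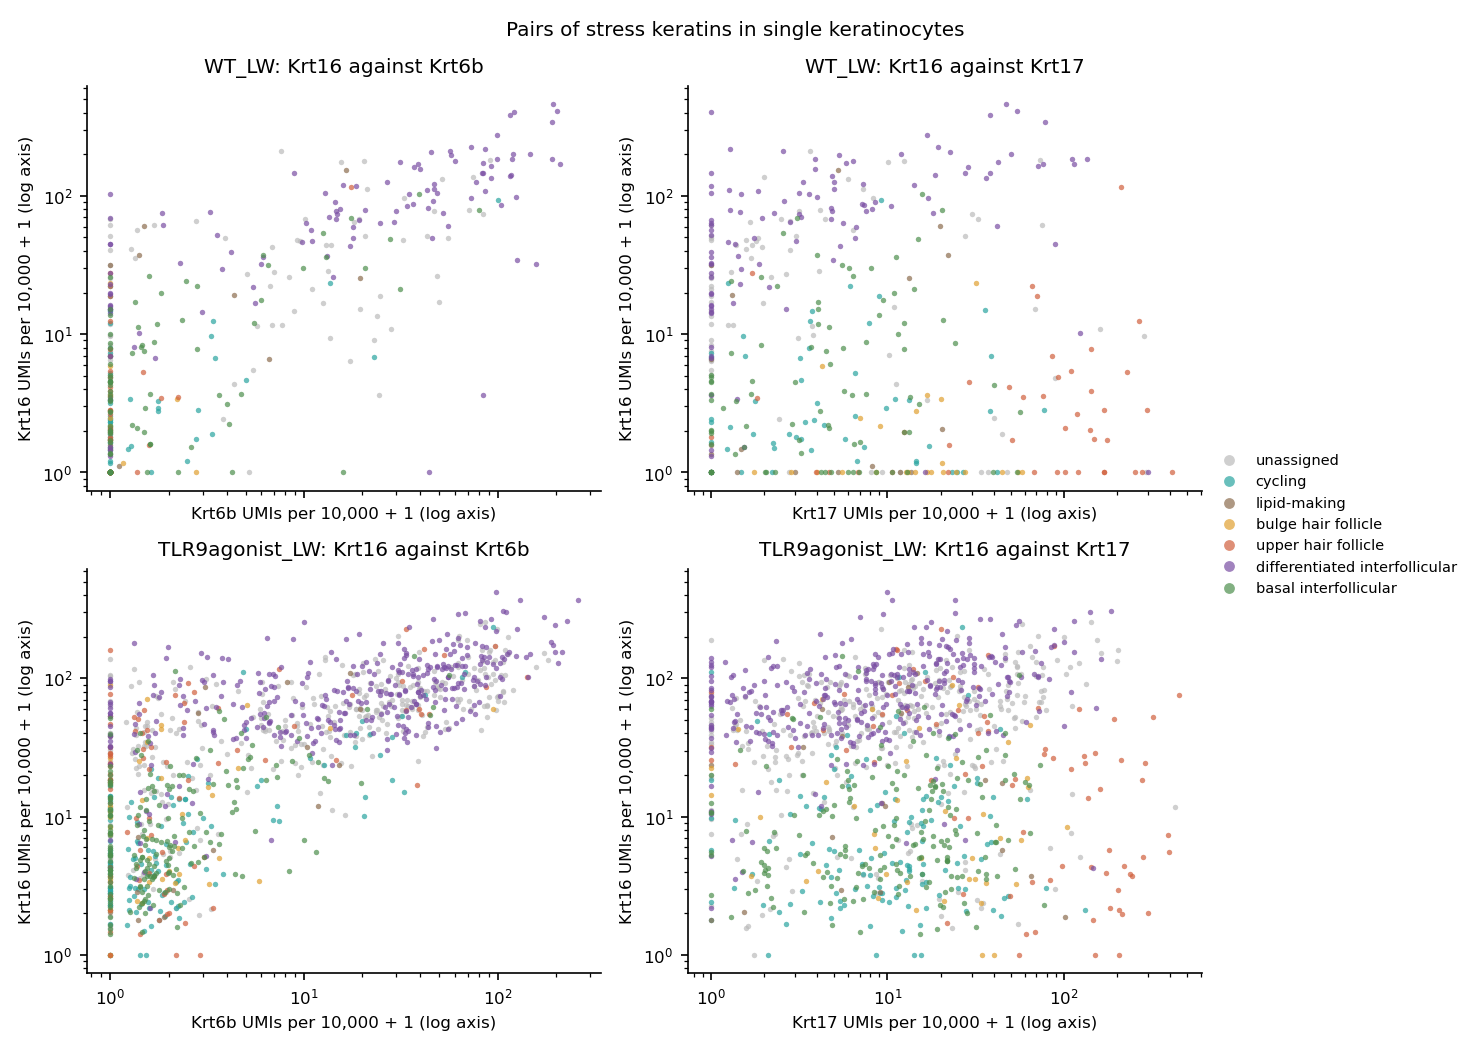
Each point is 1 keratinocyte of WT_LW (top) or TLR9agonist_LW (bottom), with Krt16 against Krt6b (left) and against Krt17 (right) in UMIs per 10000 plus 1 on log axes, coloured by subset. Krt16 and Krt6b rise together in differentiated cells. Upper hair follicle cells make up 20 of 28 WT_LW cells and 30 of 56 TLR9agonist_LW cells with over 1% Krt17 UMIs. The median upper hair follicle cell gave Krt16 0.010% of its UMIs in WT_LW and 0.24% in TLR9agonist_LW.

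Detection is given beside its base rates. In thinned cells of WT_LW, 91.0% of the cells with Krt6b also had Krt16, as did 40.7% of the cells without Krt6b, and 54.1% of those with Krt16 had Krt6b. In TLR9agonist_LW these shares were 96.4%, 69.5% and 56.9%. Krt16 was detected in 58.0% and 82.6% of keratinocytes and Krt6b in 34.5% and 48.8%. Cells with Krt6b also had Krt6a in 88.2% and 91.7% of cases.

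The other genes of the stress keratin programme were counted from lists, some of whose members (Krt5, Krt14, Krt15, Krt1, Krt10, Dsp, Pkp1, Jup, Sfn and Trp63) had also served to gate the keratinocytes. The lists were chosen with earlier results of these data known. Among 10 keratin partners and neighbours with enough UMIs, 0 were at least 2-fold higher in TLR9agonist_LW and 2 at least 2-fold lower. Of all 10986 genes with at least 50 UMIs, 2.69% were higher and 17.9% lower by that measure. The median log2 ratio of the partners was −0.60, beside −0.50 for all these genes. The lowest was Krt15, at 477 CPM in WT_LW and 83.6 in TLR9agonist_LW (log2 ratio −2.51), and the highest Krt23, at 4.70 and 8.72 CPM (0.89). Krt75, the companion layer keratin, had 1 and 7 UMIs and Krt42 had 1 and 9, while the closer paralogs Krt5 (3231 and 1866 CPM) and Krt14 (10735 and 8876 CPM) were abundant.

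Among 14 genes of keratinocyte activation and the wound edge, 6 were at least 2-fold higher and 0 at least 2-fold lower. The shares of all genes were 2.69% and 17.9%. The median log2 ratio of the list was 0.72. The highest was Sprr1a, a precursor of the cornified envelope, at 196 CPM in WT_LW and 1474 in TLR9agonist_LW (log2 ratio 2.91). The lowest was Ecm1, an extracellular matrix protein, at 18.5 and 11.8 CPM (−0.65). S100a8 and S100a9, the subunits of calprotectin, had log2 ratios of 2.63 and 2.64. In endothelial cells S100a8 went from 18.0 to 377 CPM and Sprr1a from 2.13 to 50.2 CPM, and the part of RNA from other cells in these values was not tested.

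Of 19 upstream regulators, 2 were at least 2-fold higher and 1 at least 2-fold lower, beside 2.69% and 17.9% of all genes. The median log2 ratio of the regulators was 0.05. The highest was Ereg, a ligand of the EGF receptor, at 13.1 and 30.9 CPM (log2 ratio 1.24), and the lowest was Fos, an AP-1 subunit, at 1055 and 412 CPM (−1.36). Among 9 keratin-binding and linker genes, beside the same shares of all genes, 1 was higher and 1 lower by that measure. These were Hspb1, a small heat shock protein that binds keratin filaments, at 525 and 1480.3 CPM, and Plec, which encodes the linker plectin, at 162 and 64.7 CPM (−1.32). Hspb1 was higher still in endothelial cells, at 729.6 and 6068 CPM.

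The genes whose level followed the sum of the 4 keratins most closely over 14 profiles (7 subsets of cells in 2 libraries) were Clic3, 2310046K23Rik, Rbp2, Lgals7, Slc5a1, Ceacam19, Pla2g4e and Rab25. Their Pearson coefficients ran from 0.97 to 0.94 among 8124 genes, and Lgals7 had served as a keratinocyte marker. The profiles share libraries and depth. The most abundant was Lgals7, which encodes galectin-7 of stratified epithelia, with 15586 CPM in WT_LW and 20592 in TLR9agonist_LW.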

How the data were processed

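The authors made whole-number counts of UMIs with Cell Ranger (version 4.0.0 in the file headers) and deposited them without normalization. The submitters' notes name fastp, Cell Ranger, Seurat and the build mm9, and give no further filter. The files hold no coordinates, so positions and transcripts were joined by Ensembl identifier to GENCODE M21 (27645 of 27998 identifiers, 98.7%).

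Barcodes with at least 500 UMIs, 300 genes and at most 15% mitochondrial UMIs were kept, leaving 11443 and 13206 cells. Doublets were scored against simulated ones, and the highest-scoring 9.16% and 10.6% of cells were removed (1048 and 1395). At that threshold 68.9% and 72.6% of simulated doublets were caught, so some remain. Keratinocytes had at least 12 of 22 markers, at least 1% marker UMIs and at most 0.5% UMIs of 13 markers of other lineages. Endothelial and other classes had at least 4 of their markers and 2 more than the next class. Subsets took the highest mean z-score of marker lists, of at least 0.2 and 0.1 above the next, and cycling cells had at least 4 of 7 cycle genes. Thresholds were set after the marker distributions were seen. The members and gene lists were chosen with earlier results of these data known.

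Counts were summed per subset and library, with exact Poisson intervals for CPM, exact conditional intervals for ratios and Clopper-Pearson intervals for shares; limits beside a count of 0 are 3 counts of the total. PCR and free RNA are not covered by them. Named genes were the 4 members, the highest and lowest ratio of each list among genes with at least 200 UMIs, and the 8 with the closest profile (log2 of CPM plus 1). S100a8, S100a9, Hspb1 in endothelial cells and the markers beside each subset were named after their values were seen. Il36a and Eppk1 were not among the genes used. The interval method was tested only on simulated Poisson counts, the model it assumes. The members' UMIs were concentrated in few cells, and the test does not cover that spread. Python 3.11.15, numpy 2.4.6, scipy 1.17.1, scikit-learn 1.9.0, leidenalg 0.10.2 and Biopython 1.88 were used.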

Additional observations from a re-analysis of the deposited data

Results flagged for a closer look

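For each of the 4 keratins the ratio of TLR9agonist_LW to WT_LW lay on opposite sides of 0 in 2 subsets of keratinocytes, with neither counting interval reaching 0. The difference between subsets was not tested, because each library is 1 sample. The log2 ratio of Krt6a in bulge cells exceeded that in basal cells by 2.84, and that of Krt6b by 6.82. The bulge ratio of Krt6b behind the latter was 5.93, and between 2.72 and 3.22 with doublets kept, a looser gate or clustered cells. The log2 ratio of Krt16 in bulge cells exceeded that in differentiated cells by 4.32, and the latter changed sign with scaling to the median gene. The log2 ratio of Krt17 in basal cells exceeded that in upper hair follicle cells by 1.78. The bulge cells numbered 24 and 42, and the basal value of Krt6b changed sign without the tenth of cells richest in it.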

How the results depend on the processing

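The 4 log2 ratios over all keratinocytes were positive under each of the 10 alternatives that gave one, between 0.059 and 0.64 for Krt6a, 0.26 and 0.95 for Krt6b, 0.20 and 0.89 for Krt16, and 0.092 and 0.92 for Krt17. Values are given here in the order Krt6a, Krt6b, Krt16 and Krt17. They were 0.64, 0.95, 0.89 and 0.92 with scaling to the median gene, 0.31, 0.58, 0.57 and 0.60 with keratinocytes taken from Leiden clusters, and 0.14, 0.38, 0.52 and 0.092 with equal weight per cell. They were 0.10, 0.28, 0.21 and 0.41 with the pooled makeup of subsets, and 0.059, 0.26, 0.20 and 0.41 with that of the Krt1 and Krt10 bins. A stricter gate gave 0.17, 0.58, 0.38 and 0.40. For Krt6a, Krt16 and Krt17 a looser gate gave 0.23, 0.49 and 0.52, a stricter cell filter 0.24, 0.50 and 0.58, and keeping doublets 0.17, 0.43 and 0.29. Subtracting the endothelial level gave 0.17, 0.49 and 0.41 for Krt6a, Krt6b and Krt16. The share of keratinocytes with all 4 was 20.1% in WT_LW and 41.2% in TLR9agonist_LW at 3000 UMIs, 41.4% and 77.6% without thinning, and 26.4% in TLR9agonist_LW with the looser gate. Endothelial cells without thinning had all 4 in 0% and 16.1% of cells. Genes at least 2-fold higher numbered 819 and lower ones 4543 with no filter on low counts, 631 and 622 with median gene scaling, and lower ones 942 at a minimum of 200 UMIs. In lipid-making cells the ratios of Krt6b and Krt16 turned to −0.82 and −0.17 under the stricter gate. In differentiated cells those of Krt6a, Krt6b and Krt16 turned to 0.19, 0.061 and 0.19 with median gene scaling, and those of Krt6a and Krt16 to 0.24 and 0.082 without the tenth of cells richest in the gene. That of Krt6b in basal cells then became 0.29. The cause of these changes was not tested. The endothelial subtraction, the Krt1 and Krt10 bins and the removal of the richest cells were chosen after seeing the data, as was the rule for keratinocyte clusters. The stricter gate gave no bulge value and the clusters no lipid-making value. No paired analysis was possible because each group has 1 library. Depth limits the bulge and upper hair follicle values of Krt6b in WT_LW, which rest on 3 and 24 UMIs.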

Other observations

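Keratin RNA outside keratinocytes was also described in the other cell classes. Fibroblast-gated cells had more of the 4 genes together than endothelial cells, at 242 CPM against 91.7 in WT_LW and 575 against 435 in TLR9agonist_LW. All 4 were found in 18 of 1268 thinned fibroblast-gated cells of WT_LW (1.42%) and 39 of 2916 of TLR9agonist_LW (1.34%). Among T cells this was 0 of 1947 cells in WT_LW, which allows up to 0.154% (3 counts of the total), and 10 of 1436 in TLR9agonist_LW (0.696%). T cells had 819 CPM of the 4 genes together in TLR9agonist_LW and 131 in WT_LW. The share of the 4 genes' UMIs that came from Krt16 lay between 44.4% and 49.0% in the 6 non-keratinocyte classes of TLR9agonist_LW and was 42.2% over all its cells.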
